A study of Mus musculus with 3 samples.

Results

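The CCT complex, also called TRiC, is the ring-shaped chaperonin of the cytosol, and its 8 subunits are encoded by Tcp1, Cct2, Cct3, Cct4, Cct5, Cct6a, Cct7 and Cct8. These 8 genes were taken by symbol from the 50600 genes of each file, and all 8 were found once. The files hold counts of read pairs per gene in 3 RNA-seq libraries of 1 group, T-helper 1 (Th1) cells of mouse strain C57BL/6NJ. These are primary CD4 T cells put through a differentiation protocol, and the file headers carry a time of 24 hr. The labels name biological replicates 1, 2 and 3 with a biosample each and 1 shared donor entry, and do not say whether animals or cultures were separate, so p-values here reflect variation among these libraries alone, and that variation may be technical. Age, sex and stage are not recorded, and the labels give no treatment besides the differentiation.

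CCT folds newly made proteins, above all actin and tubulin, inside a chamber formed by a pair of stacked rings, using ATP to close and open its lid. Each ring holds every subunit once, so the assembled complex needs the 8 proteins in equal number. The prefoldin complex hands substrates over to CCT, and phosducin-like proteins assist it as cofactors. The cell cycle activator Cdc20 is another known CCT substrate.

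Depth and identity of the libraries were as follows. Total counts were 3553547, 2945353 and 3369468 in replicates 1, 2 and 3, of which the 8 genes held 0.396%, 0.300% and 0.359%. The limit that a count of 0 allows, 3 counts, equalled 0.844 to 1.02 CPM, which scales counts to the library total. A gene was called detected when each library reached 1 TPM, a unit that divides counts by exon length and scales them to a fixed sum. All 7 T cell markers of a list (Cd3e, Cd3d, Cd3g, Trac, Trbc2, Cd4 and Lck) met this. Of 5 Th1 markers 3 were detected, and Tbx21, the gene of the Th1 factor T-bet, had 15, 11 and 8 counts while Ifng had 2, 2 and 1. Of the detected ones, Il12rb2 shares 1519 exon bases with Serbp1 on the opposite strand and had 90, 105 and 114 counts. All 3 natural killer and all 3 erythroid markers were at 0 in every library. Of 5 myeloid markers only Csf1r was detected (160 TPM), a gene that shares exon bases with Hmgxb3, while Lyz2, Itgam and S100a8 were at 0. Cd79a was detected among 4 B cell markers and Cd8b1 but not Cd8a as a CD8 marker. The part of other cells in the subunit levels was not tested. Genes with exon bases in common with opposite-strand genes held 68.0%, 77.5% and 70.3% of the counts. Pairs were counted with strand option 1. The headers call the workflow stranded, but no source used here states which read carries the sense of the RNA. With the opposite orientation, a gene without such sharing would keep only a residue of its mRNA, and a gene with sharing would collect pairs of its partner. Among mitochondrial mRNAs, mt-Nd6, the one encoded on the other strand from the rest, had 15.1, 23.3 and 18.2 times the counts per length of the next highest. Every level below is therefore a level of counts on the annotated strand under this option, and how far it stands for the gene's own mRNA was not tested.

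The 8 genes lie on 8 different chromosomes. In mm10 coordinates of the deposited files, Tcp1, the alpha subunit (ENSMUSG00000068039), is on chromosome 17 from 12915701 to 12925067 and Cct2, the beta subunit (ENSMUSG00000034024), on chromosome 10 from 117051001 to 117063814. Cct3, the gamma subunit (ENSMUSG00000001416), is on chromosome 3 from 88297116 to 88321767 and Cct4, the delta subunit (ENSMUSG00000007739), on chromosome 11 from 22990519 to 23003780. Cct5, the epsilon subunit (ENSMUSG00000022234), is on chromosome 15 from 31590800 to 31601847 and Cct6a, the zeta subunit (ENSMUSG00000029447), on chromosome 5 from 129786998 to 129846371. Cct7, the eta subunit (ENSMUSG00000030007), is on chromosome 6 from 85451514 to 85468475 and Cct8, the theta subunit (ENSMUSG00000025613), on chromosome 16 from 87483326 to 87495873. Human proteins of the delta and epsilon subunits are known to form rings on their own. GENCODE release M21 lists 7 of the genes as protein-coding and Cct6a as a processed transcript, whereas RefSeq lists Cct6a as protein-coding.

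Exon sharing divided the subunits. Of the 8 genes 4 share exon bases with a gene on the opposite strand, beside 22.1% of 21764 protein-coding genes, with or without counts. Of the 10216 genes tested between libraries below, 4362 share such bases. Tcp1 shares 571 bases tail-to-tail with Acat3, an acetyl-CoA acetyltransferase gene, and 141 bases with the head-to-head gene Mrpl18, a mitochondrial ribosomal protein gene, together 14.2% of its exon bases. Cct6a shares 452 bases (12.5%) head-to-head with Psph, which encodes the last enzyme of serine synthesis. Cct7 shares 214 bases (3.16%) head-to-head with Pradc1, and Cct8 shares 192 bases (6.22%) tail-to-tail with Usp16, a deubiquitinase gene. Cct2, Cct3, Cct4 and Cct5 share none. On their own strand, Tcp1 and Cct6a each hold bases of a small nucleolar RNA gene (Gm26130 and Snora15), both at 0 counts in every library.

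**Figure D1:**
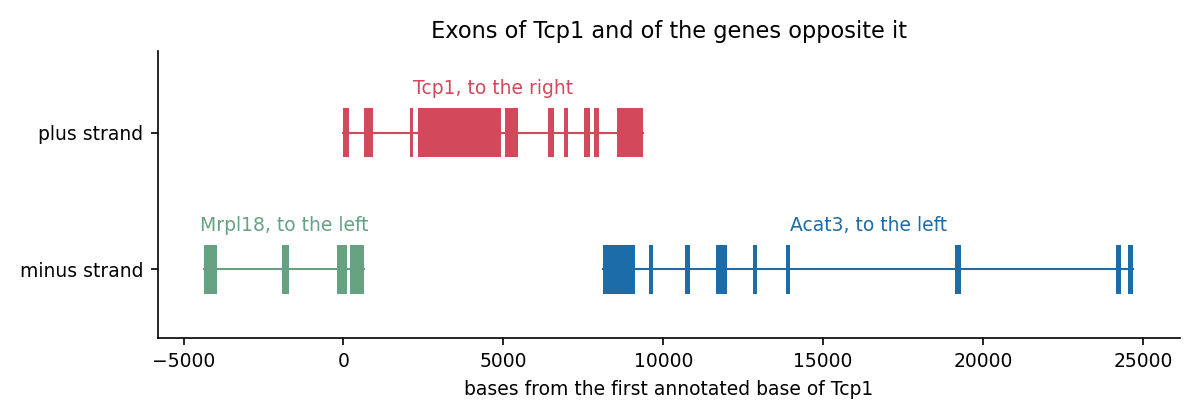
Exons (boxes) of Tcp1 on the plus strand and of Mrpl18 and Acat3 on the minus strand, by distance in bases from the first annotated base of Tcp1; names give the direction of transcription. The last exon of Tcp1 overlaps the last exon of Acat3 over 571 bases, and exons at the heads of Tcp1 and Mrpl18 overlap over 141 bases.

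The starts of the genes lay close to other starts. For 5 of 8 subunits the annotated 5' end of an opposite-strand gene was within 500 bases of their own. The share was 13.7% over all annotated protein-coding genes, with or without counts. The description was made after the loci were seen. The outermost annotated base of each gene was taken as its 5' end. The distance was 5 bases between Cct5 and Fam173b, 117 between Cct3 and Tsacc, and 126 between Cct8 and B130034C11Rik. Exons overlapped at the heads of Cct6a and Psph (5' ends 451 bases apart) and of Cct7 and Pradc1 (456 bases). They also overlapped for Tcp1 and Mrpl18, whose 5' ends by this rule are 644 bases apart, beyond 500 bases. For Tcp1 and Cct6a, the RefSeq promoter windows printed below begin inside the gene as annotated. That of Tcp1, from 12916079 to 12916378, contains the 5' end of Mrpl18 at 12916345. Distances between starts therefore depend on the start used. The non-overlapping neighbours had few counts, with 55, 29 and 31 on Fam173b, 1, 2 and 5 on Tsacc, and 8, 2 and 7 on B130034C11Rik.

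Promoter windows from RefSeq (GRCm38.p6, the build of mm10), which reach from 250 bases before a gene's start to 50 after it, were matched for 7 of the 8 genes, in 9 windows. Those of the 3 subunits whose heads overlap another gene, and the Cct5 window nearest to Fam173b, are printed 5' to 3' because these starts lie in or beside a gene on the other strand. Capitals mark every match, on either strand, to GGGCGG (the GC box known for SP1), CCAAT (known for NF-Y) or CCGGAAG (known for ETS factors).
Tcp1 (chr17:12916079-12916378, plus strand): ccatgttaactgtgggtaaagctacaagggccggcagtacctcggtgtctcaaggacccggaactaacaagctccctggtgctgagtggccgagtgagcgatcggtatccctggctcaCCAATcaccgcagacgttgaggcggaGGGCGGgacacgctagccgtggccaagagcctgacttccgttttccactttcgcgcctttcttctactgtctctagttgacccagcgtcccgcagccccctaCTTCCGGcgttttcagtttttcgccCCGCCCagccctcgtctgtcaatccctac
Cct6a (chr5:129787106-129787405, plus strand): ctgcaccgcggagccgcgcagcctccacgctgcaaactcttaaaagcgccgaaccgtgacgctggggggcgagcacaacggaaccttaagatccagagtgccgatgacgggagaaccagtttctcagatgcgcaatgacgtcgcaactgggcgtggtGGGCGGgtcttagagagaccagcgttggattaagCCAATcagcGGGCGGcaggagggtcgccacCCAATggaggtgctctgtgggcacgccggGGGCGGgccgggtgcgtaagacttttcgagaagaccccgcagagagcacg
Cct7 (chr6:85451255-85451554, plus strand): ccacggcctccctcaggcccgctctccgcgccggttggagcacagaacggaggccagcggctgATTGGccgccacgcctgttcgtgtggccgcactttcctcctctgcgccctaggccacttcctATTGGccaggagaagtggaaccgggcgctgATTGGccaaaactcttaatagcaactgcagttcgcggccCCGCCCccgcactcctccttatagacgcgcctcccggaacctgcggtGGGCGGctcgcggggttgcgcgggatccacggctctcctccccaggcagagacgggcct
Cct5 (chr15:31601797-31602096, minus strand): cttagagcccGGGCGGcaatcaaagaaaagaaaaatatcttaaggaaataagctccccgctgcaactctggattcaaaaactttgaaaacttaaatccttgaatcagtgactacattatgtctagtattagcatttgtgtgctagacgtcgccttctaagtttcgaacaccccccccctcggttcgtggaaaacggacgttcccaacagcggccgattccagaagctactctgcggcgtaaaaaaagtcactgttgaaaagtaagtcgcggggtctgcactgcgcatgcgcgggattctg
The GC box was found in all 7 matched genes (8 of 9 windows), compared with 35.7% of 32851 RefSeq promoter windows. Percentages here are over windows, and Cct2 and Cct5 have 2 windows each. CCAAT was found in 4 of 7 genes and 4 of 9 windows, namely Tcp1, Cct3, Cct6a and Cct7 (37.4% of all windows). CCGGAAG was in 3 of 7 genes and 3 of 9 windows, namely Tcp1, Cct2 and Cct8 (8.86%). GAANNTTC, a core of the element known for heat shock factors, was found in 1 of 9 windows, which is 1 of the 2 of Cct2 (7.86%). CACGTG, the E-box known for MYC, was in 0 of 9 windows (7.15%), as was TGACGTCA, known for CREB (1.79%). A match is a description of letters in these windows and does not show binding.

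All 8 subunit genes were detected in every library, and Tcp1 stood above the rest in counts and in TPM. Tcp1 also shares the most exon bases of the 8 with opposite-strand genes (712). The part of pairs from those genes in its counts was not tested. Tcp1 had 4590, 4133 and 4376 counts in replicates 1, 2 and 3, and 480, 470 and 466 TPM (472 ± 7.46, SD, n = 3). Its values were nearly alike in the 3 libraries. Cct5 had 1593, 762 and 1367 counts, or 298, 155 and 260 TPM (238 ± 74.2). Cct2 had 1353, 663 and 1067 counts, or 278, 148 and 223 TPM (217 ± 65.3). Cct8 had 1644, 790 and 1271 counts, or 280, 146 and 220 TPM (216 ± 67.0). In these 3 genes replicate 1 was the highest and replicate 2 the lowest, and the ranges of the 3 genes overlapped.

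The other 4 subunits followed the same order of libraries. Cct6a had 1331, 692 and 1100 counts, or 193, 109 and 163 TPM (155 ± 42.6). Cct4 had 1195, 599 and 959 counts, or 150, 81.6 and 122 TPM (118 ± 34.3). For both, replicate 2 was again the lowest. Cct7 had 1240, 645 and 1012 counts, or 96.2, 54.4 and 79.9 TPM (76.9 ± 21.1), and Cct3 had 1116, 547 and 932 counts, or 92.2, 49.1 and 78.3 TPM (73.2 ± 21.98). The spread over libraries was 27.4% to 31.2% of the mean for these 7 genes and 1.58% for Tcp1. Exact 95% Poisson intervals, which cover counting error only, ran for example from 502 to 595 for the 547 counts of Cct3 in replicate 2 and from 4458 to 4725 for the 4590 of Tcp1 in replicate 1.

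**Figure D2:**
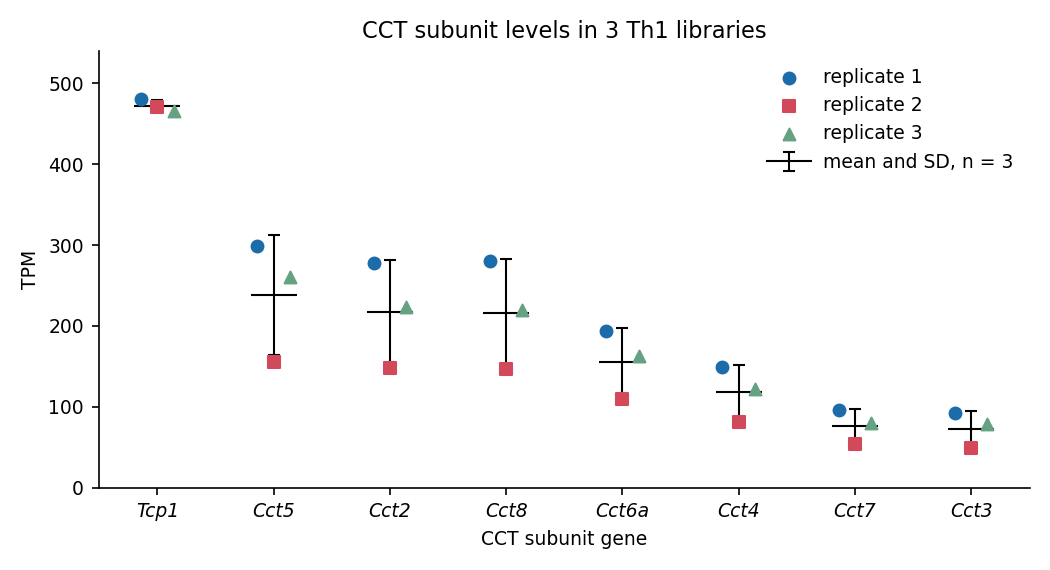
TPM of each CCT subunit gene (linear axis from 0) in replicates 1, 2 and 3 (symbols), with the mean and SD over the 3 libraries (black). The points of Tcp1 lie between 466 and 480 TPM, while replicate 2 is the lowest point of each of the other 7 genes.

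By mean TPM the order was Tcp1, Cct5, Cct2, Cct8, Cct6a, Cct4, Cct7 and Cct3. Between neighbours in this order the ranges over libraries did not overlap for 1 pair, Tcp1 and Cct5, where Tcp1 was 1.61, 3.03 and 1.79 times as high. For the other 6 neighbouring pairs the ranges overlapped, and these ranges carry the low level of replicate 2 that the subunits other than Tcp1 share. Within a library, where that level cancels, Cct8 was 1.45, 1.34 and 1.35 times Cct6a in replicates 1, 2 and 3. Cct6a was 1.29, 1.34 and 1.33 times Cct4, and Cct4 was 1.55, 1.498 and 1.53 times Cct7. The remaining neighbours were closer, with 1.07, 1.05 and 1.17 for Cct5 over Cct2, 0.994, 1.01 and 1.01 for Cct2 over Cct8, and 1.04, 1.11 and 1.02 for Cct7 over Cct3. The order held in 3 of 3 libraries for 6 of the 7 neighbouring pairs, and Cct2 and Cct8 exchanged places in replicate 1. An exact sign-flip test over 3 libraries cannot go below p = 0.25, so no pair was tested.

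How alike the subunits were depended on Tcp1 and on the length that counts were divided by. The highest subunit was 5.21, 9.57 and 5.95 times the lowest in TPM in replicates 1, 2 and 3 (6.91 ± 2.33), with Tcp1 highest and Cct3 lowest each time. Without Tcp1, a choice made after its values were seen, the fold was 3.24, 3.16 and 3.33 (3.24 ± 0.0836), from Cct3 to Cct5. In plain counts per gene, the same 7 genes lay within 1.47, 1.44 and 1.47 times of each other (1.46 ± 0.0152). The coefficient of variation over the 7 genes was 44.0% ± 1.18 in TPM and 14.1% ± 1.10 in counts.

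The TPM of a gene divides its counts by all exon bases of the annotation, which include introns retained in any listed transcript. These exon lengths ran from 2557 bases in Cct2 to 6778 in Cct7, with 6370 in Cct3, and GENCODE M21 lists 5 transcripts of Cct3 and 7 of Tcp1 as retained introns. The length of 1 mRNA per gene ran only from 1853 bases in Cct5 to 2484 in Cct4. It was the principal transcript of GENCODE M21, or for Cct6a, which has none, the longest transcript that is not a retained intron. Per kb of this mRNA, the highest of the 7 genes was 1.79, 1.71 and 1.91 times the lowest (1.80 ± 0.103), and the lowest was now Cct4, at 481, 241 and 386 counts per kb. Cct5 remained the highest of the 7, at 860, 411 and 738, and Tcp1 stood at 1877, 1690 and 1789. Cct3, the lowest in TPM, was at 564, 277 and 471 counts per kb of mRNA, above Cct4, Cct6a and Cct7 in replicates 1 and 3. Cct3 and Cct7, with the lowest TPM, had the longest exon annotation.

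**Figure D3:**
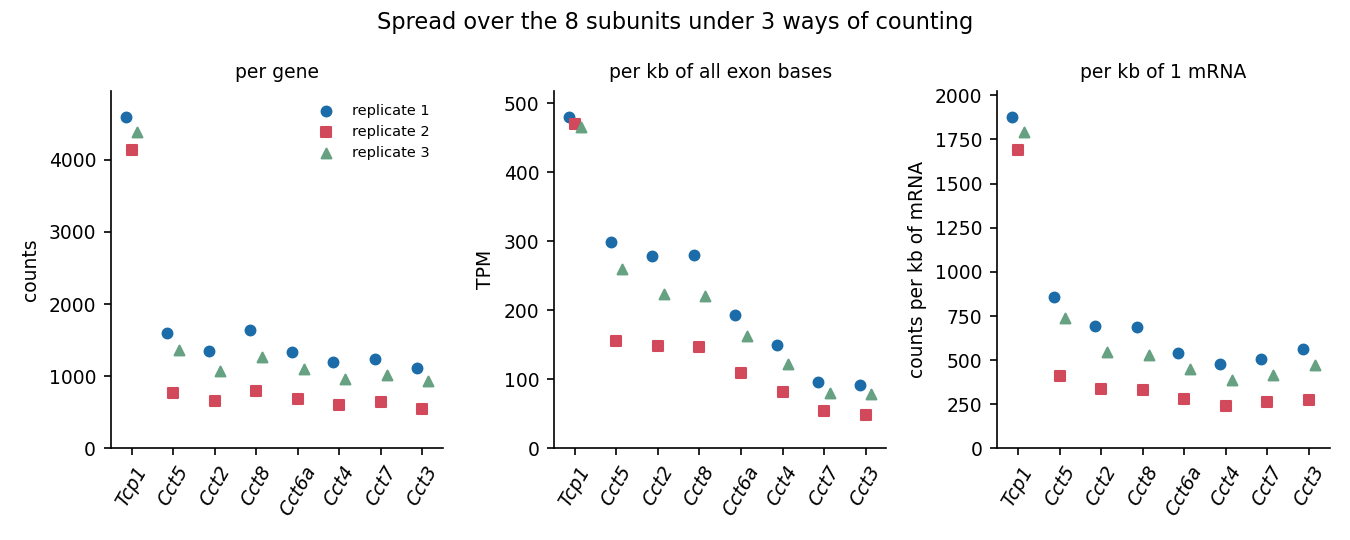
The 8 subunits in replicates 1, 2 and 3 (symbols; linear axes from 0) as counts per gene, as TPM, which divides by all exon bases, and as counts per kb of 1 mRNA. Apart from Tcp1, the subunits lie within 1.47-fold of each other in counts and within 3.33-fold in TPM.

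As shares of their summed counts, the 7 subunits other than Tcp1 were alike in the 3 libraries. Their sum was 9472, 4698 and 7708 counts. The share of Cct5 was 16.8%, 16.2% and 17.7% of it, and that of Cct8 was 17.4%, 16.8% and 16.5%. Cct2 held 14.3%, 14.1% and 13.8%, Cct6a 14.1%, 14.7% and 14.3%, and Cct7 13.1%, 13.7% and 13.1%. The lowest shares were those of Cct4 (12.6%, 12.8% and 12.4%) and Cct3 (11.8%, 11.6% and 12.1%). For each of the 7 genes the exact binomial 95% intervals of the 3 libraries overlapped, for instance from 15.2% to 17.3% for Cct5 in replicate 2 and from 16.9% to 18.6% in replicate 3. Overlap of such intervals is not a test that the shares were equal, and none was run. Tcp1 differed, with 32.6%, 46.8% and 36.2% of the counts on all 8 genes. These shares do not depend on how libraries are scaled.

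**Figure D4:**
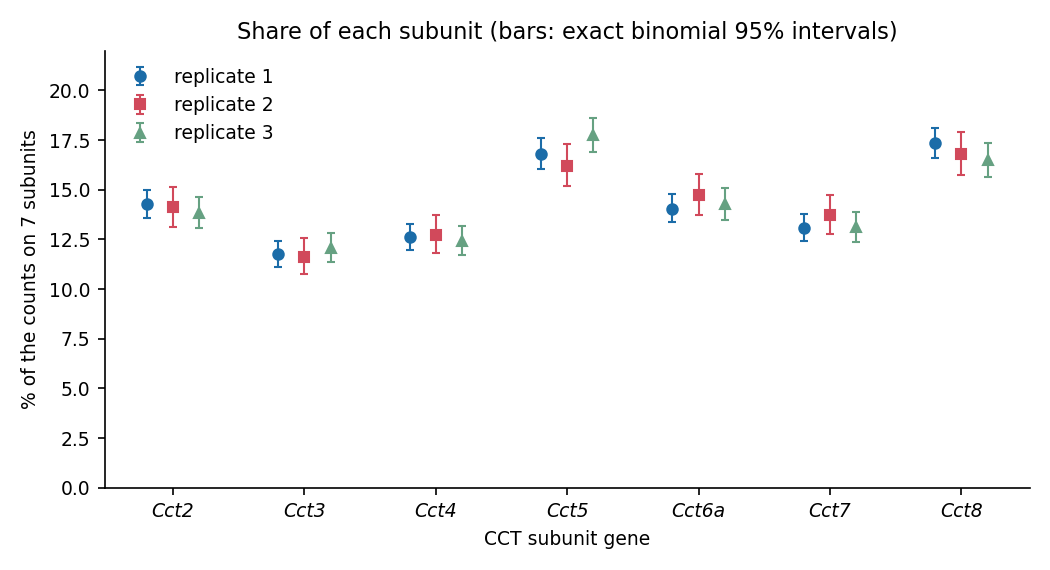
Share of each subunit in the summed counts of the 7 subunits other than Tcp1 (percent, axis from 0) in replicates 1, 2 and 3, with exact binomial 95% intervals. The intervals of the 3 libraries overlap for each gene, and shares run from 11.6% to 17.7%.

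Between libraries scaled to a common size, 7 subunits were lower in replicate 2 and Tcp1 was higher. Counts were compared with a chi-square test against counting error at library sizes scaled by edgeR's TMM method, over 10216 genes with Benjamini-Hochberg adjustment, and 37.8% of these genes passed at 0.05. The test asks only for spread beyond counting error, which replicates usually have. All 8 subunits passed. A gene with fewer counts needs a larger difference to pass, and the 37.8% includes genes with far fewer counts than the subunits. On the log2 scale, replicate 2 relative to the mean of replicates 1 and 3 was at -0.44 in Cct5, -0.39 in Cct3, -0.37 in Cct8, -0.35 in Cct2, -0.33 in Cct4, -0.30 in Cct6a and -0.29 in Cct7. Tcp1 was at 0.39. At the same sizes, 57.2% of all genes tested were lower in replicate 2. Among tested genes that share no exon bases with an opposite-strand gene, 75.7% were. Adjusted p ran from 2.1e-12 in Cct5 to 3.5e-05 in Cct7 among the 7, and was 6.1e-48 in Tcp1 (edgeR TMM sizes, chi-square test). Without replicate 2, 2 of the 8 passed the chi-square test at edgeR TMM sizes, Cct8 (adjusted p = 0.0064) and Tcp1 (adjusted p = 0.0071), beside 9.03% of all genes tested at that setting. Over all 7 settings, adjusted p of Cct5 ranged from 1.9e-34 to 0.72, and that of Tcp1 from 4.5e-63 to 0.0071 (edgeR or DESeq2 sizes or total counts). By size, 0 of the 8 varied by more than 1.5-fold between TMM-scaled libraries, whereas in CPM, scaled to total counts, replicate 1 exceeded replicate 2 by 1.59-fold (Cct7) to 1.73-fold (Cct5) in the 7 subunits other than Tcp1.

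The signs were the same under the 3 library scalings of counts, while the sizes were not, and in TPM Tcp1 in replicate 2 lay between the other libraries (480, 470 and 466). With total counts in place of TMM sizes the 7 genes lay between -0.72 and -0.57 and Tcp1 at 0.12, and with DESeq2 size factors between -0.39 and -0.23 and at 0.45. The median of all genes tested was at -0.38, -0.10 and -0.04 under total counts, TMM and DESeq2. A scaling moves every gene alike, so the place of a gene against this median is fixed by construction: the 7 subunits lay below it and Tcp1 above it.

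The same comparison over all genes differed with exon sharing. Of 5854 tested genes that share no exon bases with an opposite-strand gene 26.5% passed, with a median of -0.25 at TMM sizes (quartiles -0.48 and -0.01). Of 4362 genes that share some, 53.0% passed, with a median of 0.32 (quartiles -0.14 and 0.53). Cct2, Cct3, Cct4 and Cct5, which share none, lay within the quartiles of the first class. Tcp1 lay within the quartiles of the second. Cct6a, Cct7 and Cct8 belong to the second class, but lay below its lower quartile and within the quartiles of the first.

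Of the 5 genes opposite the subunits, 4 were higher in replicate 2 at TMM sizes, unlike Cct6a, Cct7 and Cct8 and like Tcp1. Of all tested genes that share such bases, 32.3% were lower in replicate 2 at these sizes. Acat3 had 11711, 11452 and 11052 counts, 2.55, 2.77 and 2.53 times those of Tcp1, and was at 0.52 in replicate 2 on the same scale. Its level was 2648 ± 137 TPM, with 24.3% of its exon bases shared with Tcp1. Acat2, a neighbouring near-copy with which Acat3 shares 42.6% of its 50-base stretches, had 34, 13 and 51 counts, and the reverse complement of 5.61% of the stretches of Tcp1 is found in it, so that counts on Acat2 and Acat3 are uncertain between them. Psph had 2449, 2918 and 2932 counts, against the 1331, 692 and 1100 of Cct6a, and was at 0.62. Pradc1 had 214, 222 and 218 counts and was at 0.55, and Usp16 had 506, 447 and 461 and was at 0.40. In TPM, replicate 2 of Usp16 lay between the other libraries (28.2, 27.0 and 26.1). Adjusted p was 3.4e-221 for Acat3, 1.5e-101 for Psph, 4.7e-05 for Pradc1 and 4.5e-05 for Usp16 (edgeR TMM sizes, chi-square test). Mrpl18, with 270, 160 and 223 counts, was at -0.11 and did not pass (adjusted p = 0.63). For Tcp1, Cct6a, Cct7 and Cct8, which gene of a pair the counts in shared bases came from cannot be told apart in counts per gene.

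**Figure D5:**
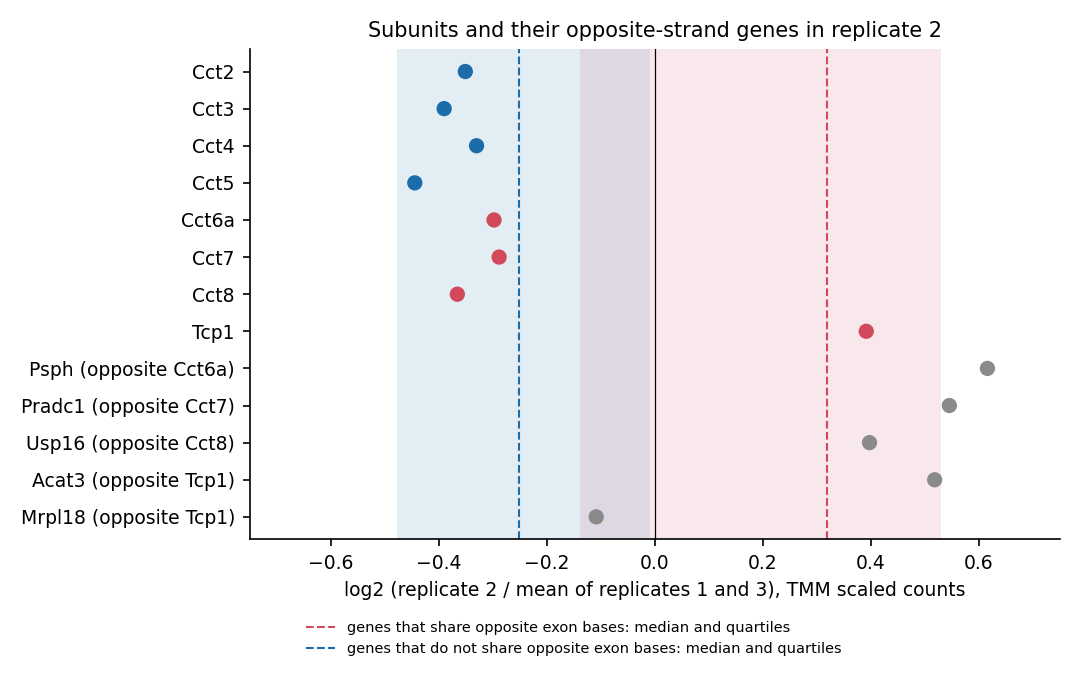
Replicate 2 relative to the mean of replicates 1 and 3 (log2, TMM-scaled counts) for the 8 subunits, blue where they share no exon bases with an opposite-strand gene and red where they do, and for the 5 opposite-strand genes (grey). Dashed lines and bands are the medians and quartiles of all tested genes that share (red) or do not share (blue) such bases: 7 subunits lie between -0.44 and -0.29, and Tcp1 at 0.39.

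Close copies had next to no counts. Cct6b, the testis paralog of Cct6a, had 3, 3 and 0 counts and Cct8l1 had 0, 0 and 1, none above what a count of 0 allows. The pseudogenes Cct3-ps1 and Tcp1-ps1 had 0 counts in every library. No 50-base stretch was shared between any of the 28 pairs of subunits, or with Cct6b or Cct8l1, while Cct3 shared 0.419% of its stretches with Cct3-ps1 and Tcp1 0.116% with Tcp1-ps1. Of the testis germ cell markers, Prm1 had 5, 3 and 4 counts and Tnp1 had 0.

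In mean TPM, the listed prefoldin and cofactor genes stood lower than the CCT subunits. Lengths of 1 mRNA were not taken for these genes, and the limit on strand given above holds for them too. The 6 prefoldin genes, which deliver unfolded actin and tubulin to CCT, were all detected, at 24.8 to 64.1 TPM with a median of 39.8. Each mean was below those of all CCT subunits, although Pfdn1 slightly exceeded Cct3 and Cct7 in replicate 3. The highest were Pfdn1 at 70.8, 41.4 and 79.99 TPM (64.1 ± 20.2) and Pfdn5 at 61.5, 43.1 and 57.6 TPM (54.1 ± 9.71). Of the 6, 2 passed the test between libraries, Pfdn1 (-0.47) and Vbp1 (-0.62), both lower in replicate 2. Among phosducin-like cofactors 3 of 4 were detected, led by Pdcl3 at 14.1 ± 3.72 TPM and Pdcl at 8.93 ± 3.65 TPM. Pdcl2 had 0 counts, and 1 of the 3 tested passed, Pdcl, at -0.82.

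Chaperonins of other compartments were also present. Hspd1 and Hspe1 encode the mitochondrial chaperonin and its lid, share 112 exon bases on opposite strands, and stood at 460 ± 119 and 137 ± 43.2 TPM. Both passed and were lower in replicate 2, at -0.28 and -0.46. Of the 3 chaperonin-like genes known from Bardet-Biedl syndrome 2 were detected, Mkks at 5.17 ± 2.74 TPM and Bbs12 at 4.50 ± 1.48 TPM, and Bbs10 was at 1.11 ± 0.505 TPM.

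Known substrates covered a wide range of levels. All 20 listed were detected, from 4.51 to 739 TPM with a median of 43.1. Actb stood at 949, 493 and 776 TPM (739 ± 230) and Tubb5 at 584, 349 and 529 TPM (487 ± 123). The actin gene Actb exceeded each CCT subunit in every library. The other listed actin gene, Actg1, stood at 300, 175 and 245 TPM, below Tcp1 in every library. The alpha tubulin gene Tuba1b was at 106 ± 40.6 TPM and Cdc20 at 50.3 ± 18.6 TPM. Of 19 tested 11 passed, all lower in replicate 2, and their median over the 19 was -0.32, beside -0.10 for all genes tested. Only 5 of the 20 share exon bases with an opposite-strand gene, and tested genes that share none had a median of -0.25, with 75.7% of them lower in replicate 2. Of 3 regulators known to act on chaperone or growth genes, Myc stood at 102 ± 26.7 TPM, Hsf1 at 21.3 ± 9.93 and Hsf2 at 1.52 ± 0.804, and all 3 passed and were lower in replicate 2 (-0.30, -0.89 and -1.34). The share of the prefoldin, cofactor and substrate genes that passed is to be read against the 37.8% of all genes.

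The genes most like the subunits in level over the 3 libraries were Hspa5, an endoplasmic reticulum chaperone gene, Rps14, a ribosomal protein gene, and Eif3c, a translation initiation factor gene. Likeness was the root mean square distance in log2(CPM + 1) from the mean of the 8 subunits, and was 0.0444, 0.05 and 0.05 over 3 libraries. Hspa5 had 1604, 820 and 1245 counts, Rps14 had 1492, 843 and 1347 and Eif3c had 1564, 880 and 1344. With 3 libraries of 1 group this likeness is in level more than in pattern.

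Summed over the 8 subunits, the level was 1868, 1214 and 1612 TPM (1565 ± 330), of which Tcp1 alone gave 480, 470 and 466. Without it the sum was 1388, 744 and 1147 TPM (1093 ± 325). The median subunit stood at 236, 128 and 191 TPM. In bulk samples, fewer cells that express a gene and less RNA per cell cannot be told apart.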

How the data were processed

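What the authors deposited are unnormalized counts, 1 per gene and library. Per the file headers, featureCounts 1.4.6-p4 assigned pairs to exons of GENCODE release M13 and summed them by gene. It required both mates to be mapped and used strand option 1. Per the labels, the assembly is mm10. The header sets no option for multi-mapped reads, and names no aligner version.

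Symbols came from GENCODE release M21 by gene identifier (50376 of 50600 matched). TPM and CPM were computed here from the counts and the exon length in the files. Exon bases shared between genes were found with bedtools 2.31.1. Variation between libraries was tested for each gene by a chi-square test against Poisson error (2 degrees of freedom) at TMM library sizes, with Benjamini-Hochberg adjustment over the genes kept by filterByExpr of edgeR. The chi-square test was tried on simulated counts with Poisson error, the error it assumes. Replicate spread beyond that error was not simulated. DESeq2 size factors served as an alternative. Software was R 4.3.3, edgeR 4.0.16, DESeq2 1.42.0, Python 3.11.15, numpy 2.4.6, pandas 2.3.3, scipy 1.17.1 and matplotlib 3.10.9.

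The members, gene lists and tests were chosen with earlier results of these data known. The rule for named genes takes the 8 subunits, genes that share exon bases with them, the paralogs Cct6b and Cct8l1, pseudogenes named for a subunit, the 2 highest of each list by mean TPM, and the 3 protein-coding genes nearest in level. Genes outside it (Tsacc, Fam173b, B130034C11Rik, Acat2, and list members named for a zero, a call or their role) were added after values were seen. Lengths of 1 mRNA, values without Tcp1, and comparisons of exon-sharing classes were also added then. Protein identity between subunits was not analysed here. Without molecular identifiers, pairs are not independent molecules, so intervals cover counting error only.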

Additional observations from a re-analysis of the deposited data

How the results depend on the processing

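Among values over the subunits as a set, those that moved by more than the SD over libraries were these. The fold from the lowest to the highest subunit (6.91) was 16.3 with the counts of opposite-strand genes that share exon bases added, 3.24 among the 4 subunits that share none, 3.24 without Tcp1, and 1.80 without Tcp1 per kb of 1 mRNA. The coefficient of variation (69.0%) was 127%, 48.7%, 44.0% and 21.3% under the same settings. The summed level (1565 TPM) was 646 TPM over the 4 subunits that share none and 1093 TPM without Tcp1. As FPKM at TMM library sizes, another scale, the sum was 864 and the median subunit, 185 in TPM, was 101. Over the settings without 1 replicate, the fold ranged from 5.58 to 7.76, the coefficient of variation from 59.0% to 75.9%, the sum from 1413 to 1740 TPM, the median subunit from 160 to 214 TPM, and the number of subunits varying between libraries from 2 to 8. That number was 0 by a 1.5-fold rule at TMM sizes. It was 8 under total counts, with DESeq2 size factors and without a filter on low counts, where 51.7%, 35.3% and 19.3% of all genes tested passed. Without replicates 1, 2 and 3, 25.4%, 9.03% and 38.4% of all genes passed. A filter at 10 counts left all 8 subunits in. Of 41 other alternatives, for single subunits and the log2 scale, 32 stayed within 1 SD. Those that moved were the FPKM values of the 8 subunits and 1 value of Tcp1. With all of its counts divided only by the exon bases that no opposite-strand gene shares, Tcp1 was at 550 TPM, against 472 ± 7.46. Counts from the shared bases could not be taken out, so this value does not show the level outside them. No paired analysis was possible because there is 1 group, although subunits were also compared as ratios within each library. Depth limits the values of genes with few counts, among them Cct6b, Cct8l1, Tsacc, B130034C11Rik, Bbs10, Tbx21, Ifng and Hsf2.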
